A study of Mus musculus with 12 samples.

Results

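The 6 genes described here, Ghrh, Sst, Trh, Crh, Avp and Oxt, encode the precursors of hypothalamic hormones that reach the pituitary gland. They are a list of named genes, chosen with earlier results of these data known, from a table of 52638 entries, and all 6 were present and had enough counts to be tested in every comparison. RNA was sequenced from the hypothalamus of adult mice in which Cre recombinase, expressed from the gene of the long leptin receptor (LepRb), switches on a ribosomal protein L10a fused to green fluorescent protein (GFP:L10a). Tagged ribosomes were pulled down on beads, so bead-bound RNA is enriched for transcripts under translation in LepRb cells, and the supernatant holds the RNA left after the pull-down. The Ctrl and the Stat3KO mice both carried LepRb-Cre/Cre together with GFP:L10a/GFP:L10a at R26, and the Stat3KO mice were in addition Stat3-flox/flox. Neither group is a mouse without Cre or without the tagged ribosome. Each genotype had 3 pools of hypothalami from 5 to 8 mice, and each pool gave 1 bead-bound and 1 supernatant library, for 12 libraries in 4 groups of 3. The tissue was a ventral diencephalic block with edges of 3 mm, cut behind the optic chiasm, and the labels give no age beyond adult. The deletion follows Cre, so Stat3 was targeted only in cells that express LepRb, while the supernatant is RNA of mixed hypothalamic tissue.

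Hypothalamic neurons control the pituitary in 2 ways. Hypophysiotropic neurons release peptides into the portal vessels of the median eminence: growth hormone-releasing hormone (Ghrh) from the arcuate nucleus drives growth hormone secretion, somatostatin (Sst) restrains it, thyrotropin-releasing hormone (Trh) drives thyrotropin, and corticotropin-releasing hormone (Crh) drives corticotropin. Magnocellular neurons of the paraventricular and supraoptic nuclei instead send axons to the posterior pituitary and release vasopressin (Avp), which makes the kidney retain water, and oxytocin (Oxt), which contracts the uterus and ejects milk. Leptin acts on the long receptor, whose best known signal runs through the transcription factor STAT3, and the thyroid and growth axes both respond to fasting, when leptin falls.

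On GRCm38 the genes lie on 4 chromosomes. Ghrh (ENSMUSG00000027643) spans chr2:157329497-157347506, Sst (ENSMUSG00000004366) chr16:23889573-23890958, Trh (ENSMUSG00000005892) chr6:92242061-92244650 and Crh (ENSMUSG00000049796) chr3:19693401-19695396, all on the minus strand. Avp (ENSMUSG00000037727, chr2:130580620-130582554, minus strand) and Oxt (ENSMUSG00000027301, chr2:130576173-130577054, plus strand) are neighbours, 3566 bases apart with their 3′ ends facing each other, and each is the other's nearest coding gene. No annotated gene overlaps any of the 6.

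Because Stat3 is the gene targeted in the Stat3KO mice, promoter windows were searched for the palindromic half-sites that STAT proteins recognise, and for sites of 2 other regulators of hormone genes. RefSeq windows on GRCm38, from 250 bases before to 50 bases after an annotated start, matched 5 of the 6 genes with 6 windows, 2 of them for Ghrh. Both strands were searched, all 3 STAT spacings being palindromic. TTCNNGAA occurred in 8.52% of all 32851 windows of 300 bases, TTCNNNGAA in 8.3%, and the same half-sites with 4 bases between them in 6.95%. The cyclic AMP response element TGACGTCA occurred in 1.79%, and the nuclear receptor half-site AGGTCA, which reads TGACCT on the other strand, in 16.3%. The windows of 4 genes are shown because they differ in these motifs, and capitals mark every match.
Trh (chr6:92244601-92244900, minus strand): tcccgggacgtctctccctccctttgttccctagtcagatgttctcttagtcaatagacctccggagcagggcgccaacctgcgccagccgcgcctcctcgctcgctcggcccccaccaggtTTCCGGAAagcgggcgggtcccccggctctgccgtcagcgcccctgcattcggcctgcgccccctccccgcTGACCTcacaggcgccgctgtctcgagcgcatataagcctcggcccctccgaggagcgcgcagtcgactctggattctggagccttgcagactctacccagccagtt
Sst (chr16:23890795-23891094, minus strand): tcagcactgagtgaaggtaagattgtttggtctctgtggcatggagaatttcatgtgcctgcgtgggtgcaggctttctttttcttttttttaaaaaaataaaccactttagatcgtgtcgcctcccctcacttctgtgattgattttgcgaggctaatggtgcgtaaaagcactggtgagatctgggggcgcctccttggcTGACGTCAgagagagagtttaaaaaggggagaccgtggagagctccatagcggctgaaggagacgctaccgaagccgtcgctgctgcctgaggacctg
Avp (chr2:130582539-130582838, minus strand): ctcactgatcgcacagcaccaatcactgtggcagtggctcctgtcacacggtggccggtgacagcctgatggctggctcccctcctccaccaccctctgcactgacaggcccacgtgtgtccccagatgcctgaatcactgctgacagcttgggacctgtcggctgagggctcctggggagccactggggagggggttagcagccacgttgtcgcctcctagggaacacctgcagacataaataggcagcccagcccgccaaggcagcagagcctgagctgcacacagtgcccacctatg
Oxt (chr2:130575919-130576218, plus strand): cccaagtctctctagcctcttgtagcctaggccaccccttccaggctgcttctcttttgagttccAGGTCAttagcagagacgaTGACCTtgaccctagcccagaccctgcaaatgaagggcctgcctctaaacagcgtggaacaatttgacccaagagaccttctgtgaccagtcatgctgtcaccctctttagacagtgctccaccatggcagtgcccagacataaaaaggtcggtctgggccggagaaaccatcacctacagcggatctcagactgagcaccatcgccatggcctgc
The Trh window held the STAT-type palindrome TTCCGGAA, beginning 128 bases before the start, and 1 nuclear receptor half-site beginning 57 bases before it. The Sst window held the cyclic AMP response element, beginning 48 bases before the start. The Oxt window held 2 nuclear receptor half-sites, beginning 185 and 166 bases before the start and facing opposite ways, and the Avp window held none of the searched motifs. Each Ghrh window held 1 nuclear receptor half-site. The matches did not overlap one another. A match describes letters only, and factor binding was not analysed here.

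Total counts ranged from 20743217 to 41829907 per library, and the 6 genes together took 0.0159% to 0.0481% of them. Levels are given as CPM, which sets the 12 libraries to 1 common size with TMM factors, as mean ± SD over 3 pools. The tagged ribosome transcript Gfp_L10a was at 82.4 to 164.5 CPM on beads and 7.39 to 15.3 CPM in the supernatant. Whole-gene counts of Stat3 were 144, 175 and 179 CPM in Ctrl beads and 114, 149 and 160 CPM in Stat3KO beads (log2 fold change −0.24, SE 0.160, edgeR quasi-likelihood adjusted p = 0.999). The ranges overlap, and counts over the whole gene do not resolve the floxed exons, so the deletion itself was not checked here. By the chi-square of counts per gene, replicate 1 stood apart from replicates 2 and 3 in every group. On Stat3KO beads it was 76.0 against either of the others and 16.1 between those. Pearson's r of log2 CPM across genes did not set it apart in Ctrl beads, where the 0.976 between replicates 1 and 2 was no lower than the value between 2 and 3. Results that rest on it are given with and without it.

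Levels of the 6 genes were compared per length of exon (RPKM, CPM divided by exon length in kilobases). In Ctrl supernatant the order by RPKM was Sst at 154 ± 9.93, Avp at 141 ± 22.2, Oxt at 106 ± 22.3, Trh at 24.9 ± 1.96, Crh at 3.72 ± 0.439 and Ghrh at 3.18 ± 0.0688. The RPKM ranges of Sst and Avp overlapped, as did those of Avp and Oxt and those of Crh and Ghrh, while Trh stood between these sets without touching either. On Ctrl beads Sst led at 267 ± 74.0 RPKM, followed by Avp at 87.1 ± 65.6, Oxt at 42.6 ± 35.6, Ghrh at 37.4 ± 6.69, Trh at 27.7 ± 2.17 and Crh at 11.1 ± 1.13. Sst and Crh were apart from their neighbours in this order, the RPKM ranges of Avp, Oxt and Ghrh overlapped those of the next gene down, and Trh, at 25.5 to 29.8 RPKM, met Ghrh at 29.8 RPKM. In Stat3KO supernatant Avp came first at 266 ± 59.7 RPKM, with Sst next at 148 ± 52.6 and Oxt at 115 ± 29.6. The upper end of Sst there, 208 RPKM, passed the lower end of Avp, 199 RPKM. On Stat3KO beads the order by mean RPKM was that of Ctrl beads, with Sst first at 177 ± 89.6 and Crh last.

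**Figure D1:**
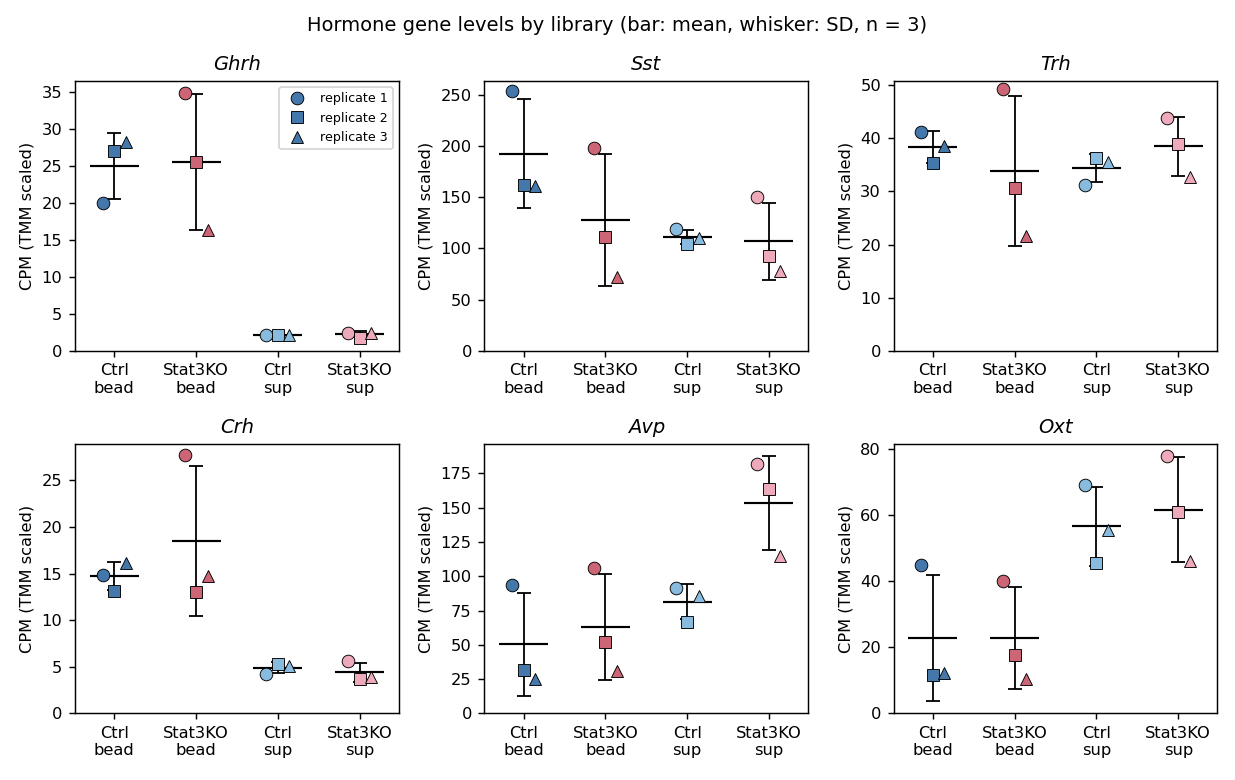
CPM of each gene in every library (points) on a linear axis, with the group mean and SD, for Ctrl and Stat3KO bead-bound and supernatant RNA, 3 pools per group. Ghrh and Crh sit higher on beads in both genotypes, Avp and Oxt spread widely on beads, and Avp in Stat3KO supernatant lies above all 3 Ctrl supernatant libraries.

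Bead-bound against supernatant RNA compares transcripts on the tagged ribosomes of LepRb cells with the RNA left after the pull-down. Without a pull-down from mice lacking Cre or the tag, unspecific binding to the beads was not measured. Ghrh and Crh were enriched on beads in both genotypes, Sst in Ctrl, and Trh in neither, while Avp and Oxt were called lower on beads in Stat3KO and, with the pool as a block, in Ctrl. Of all genes tested, 20.7% were called higher on beads and 21.2% lower in Ctrl, and 14.7% and 17.3% in Stat3KO, at an adjusted p under 0.05 by edgeR's quasi-likelihood test. Libraries of the fractions did not overlap for 26.1% of genes higher and 28.1% lower in Ctrl, and for 23.9% and 25% in Stat3KO. Against that background 3 of the 6 genes were called higher and 0 lower in Ctrl, and 2 were called higher and 2 lower in Stat3KO. These fits ignored that both fractions came from the same pools. With the pool as a block, 3 genes were called higher and 2 lower in Ctrl, against 29.4% and 29.0% of all genes, and 2 and 2 in Stat3KO, against 23.7% and 26.0%. In bulk RNA, fewer cells of a type and less RNA per cell cannot be told apart.

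Ghrh, the growth hormone-releasing hormone gene of the arcuate nucleus, was at 19.9, 26.9 and 28.2 CPM on Ctrl beads and at 2.17, 2.12 and 2.08 CPM in Ctrl supernatant. The Stat3KO libraries read 34.8, 25.5 and 16.4 CPM on beads and 2.45, 1.73 and 2.41 CPM in supernatant. Every bead library was far above every supernatant library, and supernatant counts were low, at 49 to 97 reads. The log2 fold change was 3.56 in Ctrl (SE 0.169, adjusted p = 1.85e-05, 11.8-fold) and 3.54 in Stat3KO (SE 0.291, adjusted p = 8.71e-05, 11.6-fold). Its bead to supernatant ratio lay between 6.79 and 14.7 over the 6 pools, and that of the tagged ribosome transcript between 8.37 and 16.8, so the ranges overlapped.

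Crh, the corticotropin-releasing hormone gene, was at 14.9, 13.2 and 16.1 CPM on Ctrl beads against 4.25, 5.34 and 5.14 CPM in supernatant. In Stat3KO it was at 27.7, 13.1 and 14.7 CPM on beads against 5.58, 3.70 and 3.91 CPM in supernatant. The fractions did not overlap in either genotype. The log2 fold change was 1.58 in Ctrl (SE 0.154, adjusted p = 0.000297, 2.99-fold) and 2.06 in Stat3KO (SE 0.301, adjusted p = 0.00160, 4.16-fold).

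Sst, whose peptide restrains growth hormone and thyrotropin, was at 254, 162 and 162 CPM on Ctrl beads against 119, 104 and 111 CPM in supernatant, with no overlap. It was called higher on Ctrl beads (log2 fold change 0.80, SE 0.188, adjusted p = 0.0102, 1.74-fold), and with all 12 libraries in 1 fit the adjusted p was 0.0549. In Stat3KO the bead values of 199, 112 and 72.4 CPM overlapped the supernatant values of 150, 92.4 and 78.3 CPM, and the log2 fold change was 0.24 (SE 0.345, adjusted p = 0.616). Being called in 1 genotype alone is not a difference between them: the genotype difference of the bead to supernatant ratio was −0.54 on the log2 scale (SE 0.436, 95% interval −1.47 to 0.40, adjusted p = 1.00).

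Trh, which drives thyrotropin, was at 41.3, 35.3 and 38.5 CPM on Ctrl beads and 31.3, 36.4 and 35.6 CPM in supernatant. The fractions overlapped, with a log2 fold change of 0.16 (SE 0.114, 95% interval −0.10 to 0.42, adjusted p = 0.281). In Stat3KO the beads read 49.3, 30.6 and 21.7 CPM and the supernatant 43.9, 38.9 and 32.7 CPM, also overlapping, with a log2 fold change of −0.20 (SE 0.261, adjusted p = 0.590). Without replicate 1 of Stat3KO beads the value was −0.56 (adjusted p = 0.0225, with 18.6% of genes called lower), and without replicate 1 of all groups it was −0.46 (adjusted p = 0.0131, with 23.0% called lower). Trh was called lower on beads in both of these fits.

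Both magnocellular genes had negative log2 fold changes in both genotypes. Avp was at 93.8, 32.0 and 25.1 CPM on Ctrl beads and at 91.2, 66.9 and 86.0 CPM in Ctrl supernatant. Replicate 1 of the beads lay above all supernatant libraries and replicates 2 and 3 below all of them. The log2 fold change was −0.68 (SE 0.444, adjusted p = 0.244), and with the pool as a block it was −0.92 (SE 0.264, adjusted p = 0.0129). Without replicate 1 of Ctrl beads it was −1.51 (adjusted p = 7.24e-05, 24.4% called lower), without replicate 1 of all groups −1.43 (adjusted p = 3.56e-05, 26.0% called lower), and with no filter on low counts −0.67 (adjusted p = 0.0364, 13% called lower). In Stat3KO Avp was at 106, 52.1 and 30.7 CPM on beads and at 182, 164 and 115 CPM in supernatant, without overlap, and it was called lower on beads (log2 fold change −1.30, SE 0.377, adjusted p = 0.0274).

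Oxt was at 45.0, 11.6 and 12.1 CPM on Ctrl beads against 69.3, 45.4 and 55.5 CPM in supernatant, and at 40.2, 17.6 and 10.5 CPM on Stat3KO beads against 78.0, 61.2 and 46.2 CPM in supernatant. The fractions did not overlap in either genotype. The log2 fold change was −1.30 in Ctrl (SE 0.493, adjusted p = 0.0628) and −1.45 in Stat3KO (SE 0.410, adjusted p = 0.0245). With the pool as a block the Ctrl value was −1.57 (adjusted p = 0.000476), and without replicate 1 of Ctrl beads it was −2.26 (adjusted p = 1.14e-05). The Ctrl value of Oxt also passed with library totals (−1.46, 27.2% of genes called lower), with limma-voom (−1.66, 22.8%) and with all 12 libraries in 1 fit (−1.32, 20.6%). The Stat3KO calls of both magnocellular genes were lost without replicate 2 or 3 of the beads or replicate 1 or 2 of the supernatant, with adjusted p from 0.0554 to 0.0813 for Avp and 0.0524 to 0.0755 for Oxt. DESeq2 gave adjusted p of 0.0590 for Avp and 0.0548 for Oxt in Stat3KO.

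Within each pool the bead to supernatant ratio of Avp was 1.03, 0.478 and 0.292 in Ctrl and 0.584, 0.319 and 0.267 in Stat3KO, and that of Oxt was 0.649, 0.256 and 0.218 in Ctrl and 0.515, 0.288 and 0.228 in Stat3KO. Pool 1 had the highest ratio of both genes in both genotypes. The lateral hypothalamic peptide gene Hcrt was likewise highest in pool 1, with ratios of 1.01, 0.497 and 0.361 in Ctrl and 0.678, 0.375 and 0.312 in Stat3KO. The part of non-LepRb RNA on the beads in the magnocellular ratios was not tested.

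**Figure D2:**
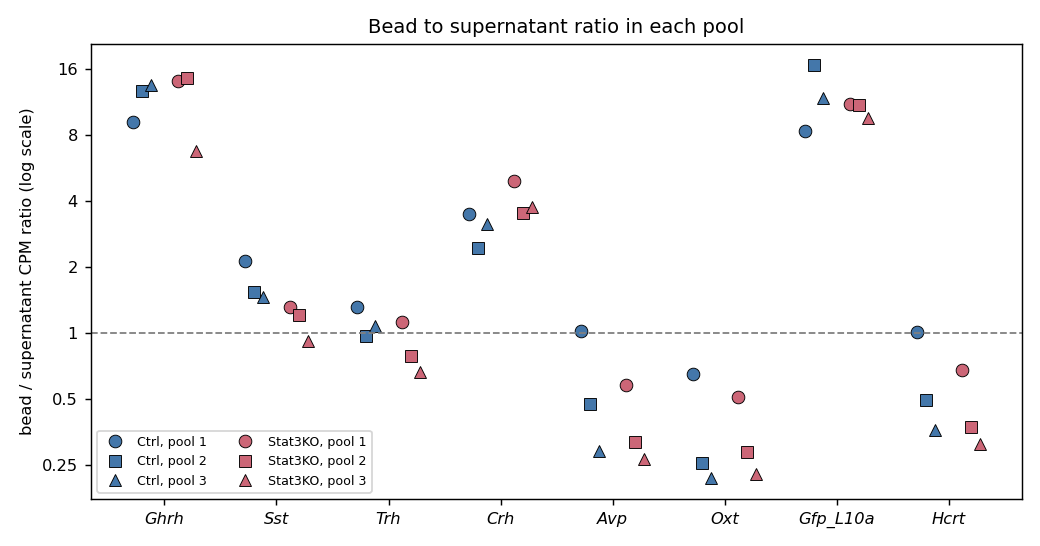
Bead to supernatant ratio of CPM in each of the 6 pools (points) on a log axis, for the 6 hormone genes, the tagged ribosome transcript and Hcrt, Ctrl and Stat3KO. Ghrh lies between 6.79 and 14.7 beside the tagged ribosome transcript, Trh between 0.664 and 1.32, and Oxt between 0.218 and 0.649.

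The comparison of Stat3KO with Ctrl asks whether loss of STAT3 from LepRb cells goes with a change of these transcripts. On beads none of the 6 was called, against a background of 0.421% of genes called higher and 0.0288% lower, 73 and 5 of 17354, with 713 at an unadjusted p under 0.05. Ghrh, whose bead values are given above, had a log2 fold change of 0.03 (SE 0.258, 95% interval −0.54 to 0.60), so a change of more than 1.52-fold upward or below 0.687-fold lies outside its interval. The same values were −0.59 for Sst (SE 0.324, 95% interval −1.31 to 0.12), −0.18 for Trh (SE 0.258), 0.33 for Crh (SE 0.266), 0.33 for Avp (SE 0.515) and −0.00 for Oxt (SE 0.564). The adjusted p by edgeR's quasi-likelihood test was 0.999 or more for each. Avp and Oxt were the least precise, with intervals of −0.81 to 1.47 and −1.25 to 1.25 on the log2 scale.

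The bead results for Sst and Trh changed when replicate 1 was left out of all groups at once. Leaving out any 1 library gave no call by edgeR's quasi-likelihood test. The lowest adjusted p was then 0.220 for Sst and 0.475 for Trh. The 3 Stat3KO bead values of Sst, 199, 112 and 72.4 CPM, include 1 inside and 2 below the Ctrl range of 162 to 254 CPM, and those of Trh, 49.3, 30.6 and 21.7 CPM, lie on both sides of the Ctrl range of 35.3 to 41.3 CPM. Without replicate 1 of all groups Sst fell by 0.84 on the log2 scale (SE 0.134, adjusted p = 0.000158) and Trh fell by 0.52 (SE 0.143, adjusted p = 0.0228). That fit, on 2 libraries per group, called 5.1% of genes lower and 1.56% higher, 894 and 273 of 17543, so a lower call is also more common there. Ghrh was then −0.42 (adjusted p = 0.139), Avp 0.52 (adjusted p = 0.0672), Crh −0.10 and Oxt 0.22, none called. Markers of other regions, described below, differed among the same bead libraries. In replicates 1, 2 and 3, summed striatal and cortical markers read 408, 329 and 306 CPM in Ctrl and 430, 186 and 210 CPM in Stat3KO. Summed thalamic markers read 752, 692 and 712 CPM in Ctrl and 767, 770 and 846 CPM in Stat3KO. The part of these differences in the Sst and Trh values was not tested.

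In the supernatant Avp was the only one of the 6 genes whose genotypes did not overlap. It was at 91.2, 66.9 and 86.0 CPM in Ctrl and at 182, 164 and 115 CPM in Stat3KO, with all 3 Stat3KO libraries above all 3 Ctrl libraries; 6.4% of genes were higher without overlap and 6.26% lower. The means were 81.3 ± 12.8 and 153 ± 34.5 CPM. The log2 fold change was 0.91 (SE 0.168, 95% interval 0.54 to 1.28, 1.88-fold), with an unadjusted p of 0.00017 that ranked 18 among 18547 genes and an adjusted p of 0.176, so the comparison was not called by edgeR's quasi-likelihood test. That test called 0.0% of genes higher and 0.0108% lower, 0 and 2 genes, with 1149 at an unadjusted p under 0.05. DESeq2 called Avp (log2 fold change 0.92, adjusted p = 0.00016) among 14 genes higher, 0.0755% of those tested, and edgeR without a filter called it too (adjusted p = 2.55e-10, 0.14% of genes higher). That unfiltered fit tested 32767 genes in place of 18547, on the same Avp counts. Its log2 fold change for Avp was also 0.91, so the smaller adjusted p does not come from a larger change. Leaving out single libraries gave log2 fold changes of 0.77 to 1.08 and adjusted p of 0.0354 to 0.604, the lowest without replicate 3 of Stat3KO supernatant, where 0.0157% of genes were called higher. Without replicate 1 of all groups the adjusted p was 0.00723, with 1.07% called higher.

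Oxt, the neighbouring gene, was at 69.3, 45.4 and 55.5 CPM in Ctrl supernatant and 78.0, 61.2 and 46.2 CPM in Stat3KO supernatant. The groups overlapped, with a log2 fold change of 0.12 (SE 0.188, 95% interval −0.29 to 0.53, adjusted p = 0.938). The remaining values in supernatant were 0.04 for Ghrh (SE 0.222), −0.06 for Sst (SE 0.196), 0.15 for Trh (SE 0.129) and −0.17 for Crh (SE 0.201), with adjusted p of 0.897 to 0.985. Without replicate 1 of all groups Sst fell by 0.35 in supernatant (adjusted p = 0.0358), where 4.22% of genes were called lower.

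**Figure D3:**
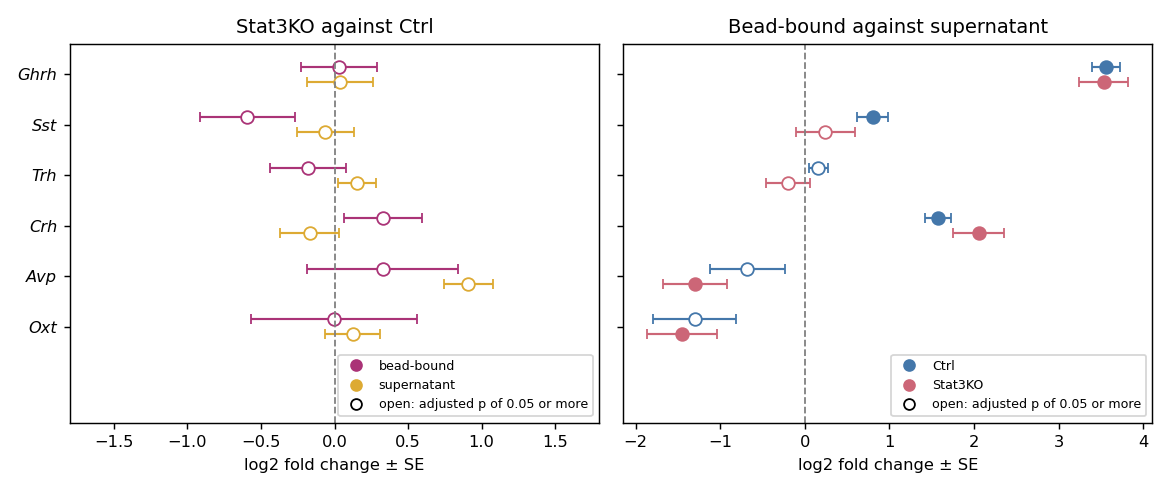
Log2 fold change ± SE of the 6 genes, for Stat3KO against Ctrl in each fraction (left) and for the bead-bound over the supernatant fraction of Ctrl and of Stat3KO (right); filled points have an adjusted p under 0.05 by edgeR's quasi-likelihood test. Ghrh stands at 3.56 and 3.54 on the right and Avp in supernatant at 0.91 on the left, as an open point.

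The dissected block can hold tissue beyond the hypothalamus, and markers of other regions and cell types differed among the same supernatant libraries. None of the markers measured was at 0 in every library. Summed over the list, 10 of 10 striatal and cortical markers were at 537 to 658 CPM in Ctrl and at 637, 232 and 329 CPM in Stat3KO replicates 1, 2 and 3. In the same order, Avp read 182, 164 and 115 CPM in Stat3KO, and it read 91.2, 66.9 and 86.0 CPM in Ctrl. Glial sums were lower in all 3 Stat3KO supernatant libraries than in all 3 Ctrl ones. Among the glial markers listed, only the astrocyte gene Aldh1l1 had a positive log2 fold change (0.11). The 6 astrocyte markers were at 782 to 1004 CPM in Ctrl and 602 to 779 CPM in Stat3KO, 5 oligodendrocyte markers at 1905 to 2077 CPM and 1613 to 1814 CPM, and the 6 microglial markers at 69.5 to 77.7 CPM and 47.0 to 62.0 CPM. Summed, the 6 neuronal markers went the other way without overlap, at 5527 to 6177 CPM in Ctrl and 6185 to 6358 CPM in Stat3KO. Snap25 alone made up 3320 to 3530 CPM and 3685 to 3879 CPM of these sums. Taken singly, Snap25 and Stmn2 were higher without overlap, while Rbfox3, Tubb3, Syt1 and Elavl4 overlapped. Syt1 and Elavl4 had log2 fold changes of −0.11 and −0.04. The sum of the 3 ventromedial markers was also higher in Stat3KO without overlap, at 14.05 to 15.2 CPM and 15.5 to 21.1 CPM. The sum of the 9 pituitary markers was lower, at 5.02 to 12.0 CPM and 3.84 to 4.86 CPM. Ctrl replicate 2 held 3.98 CPM of Gh and 3.30 CPM of Prl. Tshb overlapped between genotypes. Log2 fold changes were −2.96 for Gh and −1.56 for Cga, but 0.18 for Tbx19 and 0.78 for Pitx1. Otp, listed here among the factors of the paraventricular lineage, was at 33.3, 29.8 and 29.5 CPM in Ctrl and 35.3, 44.1 and 42.9 CPM in Stat3KO, all higher in Stat3KO and not called. Its bead to supernatant ratio was 3.57 to 5.77 over the pools, against 0.437 to 0.615 for Sim1, listed in the same lineage. Which cells the Otp RNA came from was not tested. The other listed factors of that lineage overlapped. Their log2 fold changes were 0.19 for Sim1, −0.14 for Pou3f2, 0.13 for Arnt2 and 0.43 for Creb3l1. The summed factors of that lineage overlapped, at 358 to 416 CPM in Ctrl and 395 to 461 CPM in Stat3KO, but Arnt2 alone made up 267 to 350.5 CPM of these sums. The 6 suprachiasmatic markers overlapped too, at 95.7 to 104 CPM and 80.3 to 115 CPM, with 59.7 to 101 CPM from Rgs16 alone. The part of these differences in the Avp and Sst values was not tested. Thalamic markers, 6 of 6 measured, were at 1101 to 1396 CPM in Ctrl and 1152 to 1852 CPM in Stat3KO. The growth hormone gene Gh did not pass 3.98 CPM in any library.

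The ratio of Avp to Oxt counts compares the 2 neighbours within 1 library, where scaling between libraries cancels. In supernatant it was 1.32, 1.47 and 1.55 in Ctrl and 2.33, 2.67 and 2.49 in Stat3KO. All Stat3KO ratios were above all Ctrl ratios, the geometric mean being 2.49 against 1.44, a 1.73-fold difference (log2 difference 0.79). The exact permutation test gave p = 0.1, 2-sided, the smallest p that 3 against 3 allows, so this design cannot reach 0.05. On beads the ratio was 2.09, 2.75 and 2.07 in Ctrl and 2.64, 2.96 and 2.91 in Stat3KO. These overlapped, with geometric means of 2.28 and 2.84, a 1.24-fold difference and an exact permutation p of 0.2. Counts were not length-corrected, so the ratio compares libraries and not the 2 genes' amounts.

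**Figure D4:**
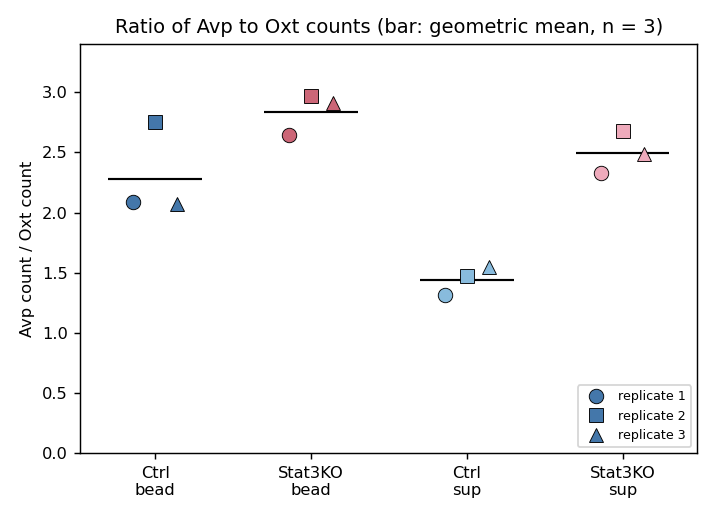
Ratio of Avp to Oxt counts in each library (points) with the geometric mean, by genotype and fraction. In supernatant the Stat3KO ratios, 2.33 to 2.67, lie above the Ctrl ratios, 1.32 to 1.55, and on beads the groups overlap.

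The bead to supernatant ratio itself was compared between genotypes for all 6 genes with 12 libraries. The interaction was −0.02 for Ghrh, −0.54 for Sst (SE 0.436), −0.34 for Trh, 0.49 for Crh (SE 0.359), −0.59 for Avp (SE 0.631) and −0.13 for Oxt on the log2 scale, with adjusted p rounding to 1.00 for each. None was called, against 0.193% of 19122 genes called higher and 0.0105% lower, with 405 at an unadjusted p under 0.05.

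Genes of the same axes were followed through 6 lists. Not one gene of these lists was called between genotypes in either fraction or in the interaction. Of all genes tested, bead against supernatant fits called 20.7% higher and 21.2% lower in Ctrl, and 14.7% and 17.3% in Stat3KO. In bead-bound against supernatant RNA the hormone receptors were called higher for 7 and lower for 1 of 11 tested in Ctrl, with 14 listed and a median log2 fold change of 0.56 against −0.01 over all genes. In Stat3KO it was 5 and 1 of 11. The somatostatin receptor Sstr1 had a log2 fold change of 1.11 in Ctrl (adjusted p = 0.000728) and 0.57 in Stat3KO (adjusted p = 0.0244), the vasopressin receptor Avpr1a 1.44 in Ctrl and 1.24 in Stat3KO, and the CRH receptor Crhr2 1.34 in Ctrl and 0.62 in Stat3KO, the last not called (adjusted p = 0.0526). The rodent TRH receptor Trhr2 was lower, at −1.19 and −1.26. Sstr1 and Crhr2 were at −0.67 (adjusted p = 0.253) and −0.83 (adjusted p = 0.457) between genotypes on beads, not called.

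Of the transcription factors of the Ghrh lineage, 5 of 5 were called higher on beads in Ctrl and 4 of 5 in Stat3KO, with a median log2 fold change of 2.18 and 2.05. Over all genes tested, 20.7% were called higher and 21.2% lower on beads in Ctrl, and 14.7% and 17.3% in Stat3KO. Gsx1, which mouse Ghrh neurons need, was at 3.81 in Ctrl and 3.75 in Stat3KO, Hmx2 at 2.37 and 2.22, Hmx3 at 2.18 and 2.05, and Dlx2 at 0.62 and 0.57. Of the 5 factors of the paraventricular lineage, 2 were called higher and 1 lower in Ctrl, and 1 and 1 in Stat3KO. Otp was higher at 2.34 and 2.19, while Sim1, needed for the same neurons in mouse, was lower at −0.86 and −1.15. Peptide processing genes were higher for 5 of 7 in Ctrl and 4 of 7 in Stat3KO, with none lower. The list holds 5 enzymes, of which 3 were called in each genotype, and 2 genes that are not enzymes, the chaperone Scg5 and the convertase inhibitor Pcsk1n. The called enzymes were the prohormone convertase Pcsk1 at 1.37 and 1.16, the amidating enzyme Pam at 1.33 and 1.14, and Qpct, which closes the pyroglutamate ring at the end of the TRH peptide, at 1.24 and 1.24.

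Related ligands and clearance genes were called higher for 2 and lower for 1 of 7 tested in Ctrl, and higher for 2 and lower for 0 in Stat3KO. The shares over all genes tested were 20.7% higher and 21.2% lower in Ctrl, and 14.7% and 17.3% in Stat3KO. The CRH-binding protein gene Crhbp was at 1.24 and 1.29 and Ucn, a peptide of the CRH family, at 4.10 and 2.29. On beads Ucn read 15, 2.34 and 7.62 CPM in Ctrl and 2.86, 1.71 and 1.72 CPM in Stat3KO, with a log2 fold change of −1.99 between genotypes (adjusted p = 0.471). The groups overlapped between 2.34 and 2.86 CPM. Of the 8 genes of hormone feedback, 2 were higher and 3 lower in Ctrl and 2 and 2 in Stat3KO. The growth hormone receptor Ghr was higher at 1.31 and 1.5, and Dio2, the thyroid hormone-activating deiodinase of tanycytes and astrocytes, was lower at −1.38 and −1.66. Between genotypes in supernatant, where none was called, the log2 fold change was 0.54 for Trhr2 (adjusted p = 0.662), 0.39 for Otp (adjusted p = 0.570) and 0.43 for Creb3l1, a regulator of Avp transcription (adjusted p = 0.803).

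The 6 genes moved unequally across libraries. As a description over 12 libraries, from which each group's mean was taken out, Avp and Oxt followed each other most closely (r = 0.98), and Sst followed Oxt (r = 0.89), Trh (r = 0.89) and Avp (r = 0.88). Ghrh was little related to Avp (r = 0.19) or Oxt (r = 0.21). The points share pools, and replicate 1 stands apart in counts in each group. Among 13477 genes, those with the pattern most like each hormone gene over the 12 libraries (Pearson r of log2 CPM) were Mkrn1, Resp18 and H2-Q2 for Ghrh (all 0.99) and Eif4a1 (0.99), Lrp8os2 (0.99) and Tceal6 (0.98) for Crh. For Sst they were Kcng2 (0.97), Syvn1 (0.95) and G6pc3 (0.95), and for Trh Pgap3 (0.90), Hs6st1 (0.87) and Lrrn2 (0.87). For Avp they were Gstm1 (0.95), Cpped1 (0.94) and Ddit4 (0.93), and for Oxt Heyl (0.99), S100a6 (0.99) and Nkain4 (0.98). The points share library and fraction, and nothing about function follows from the likeness.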

How the data were processed

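The authors deposited 1 table of raw counts per gene for the 12 libraries, without normalization. The submitters' processing notes name STAR 2.5.3a and the build mm10. How reads were counted, and on which annotation, is not given in the sources used here. GENCODE M21 matched 52489 of 52638 entries and left 149 unmatched; 18204 entries had no count in any library, and 0 columns were left over. Total counts were 20743217 to 41829907 per library. With no molecular identifiers, read depth bounds only the counting error.

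The members and gene lists were chosen with earlier results of these data known. The test was edgeR's quasi-likelihood test (edgeR 4.0.16 under R 4.3.3, with TMM; filterByExpr at 10 counts minimum, 15 in total; 2-sided), fitted over all genes and adjusted by Benjamini-Hochberg at 0.05, in 5 comparisons; bead and supernatant of 1 pool were compared without a pool block unless stated, and the interaction used all 12 libraries. Intervals are 95%, from the fit's own degrees of freedom. Alternatives were DESeq2 1.42.0 with its size factors, limma-voom (limma 3.58.1), library totals, no filter, a replicate block, all 12 libraries in 1 fit, and each library left out. Bead and supernatant libraries of 1 number come from the same pool of mice, per the labels. Their deviations from group means correlated at 0.162 to 0.308 across genes. Between genotypes the numbers gave −0.0779 to 0.121 and were not taken to pair pools in the main fits. The replicate block of the Stat3KO against Ctrl alternatives did group libraries by this number. CPM used TMM factors, RPKM the exon length in GENCODE, and log2 CPM for the genes most alike an added 0.5, over genes with a mean CPM of at least 1. The Avp to Oxt ratio was tested by an exact permutation test. The edgeR code was checked on simulated data, where the share of false calls exceeded the nominal threshold in most comparisons. From each list the text names at most the 4 genes with the smallest p among those called in a comparison, or at most 2 where none was called; for each member, the 3 genes with the highest r, leaving out clone and model names. Some genes that this rule would name are not reported here.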

Additional observations from a re-analysis of the deposited data

How the results depend on the processing

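No member that was called turned sign in any of 450 settings over members and comparisons; 378 kept their direction and call, 41 changed the sign of an uncalled value, 20 gained a call and 11 lost one. The Avp to Oxt ratio kept its direction in 14 settings. The cause of the changes was not tested.

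Stat3KO against Ctrl on beads called 73 genes higher and 5 lower. Without a filter these were 133 and 50, and without replicate 1 of all groups 273 and 894. Lower calls were 16 with DESeq2, 3 with the replicate block, 9 with all 12 libraries, and 3 to 13 without 1 library. In supernatant, where the main counts were 0 and 2, they were 46 and 157 without a filter, 14 and 29 with DESeq2, 2 higher with the replicate block, 200 and 788 without replicate 1 of all groups, and 0 to 6 and 2 to 37 without 1 library. Bead against supernatant in Ctrl called 2387 higher with library totals and 2215 to 4234 without 1 library; in Stat3KO it called 4290 and 4709 with the replicate block and 1201 to 2921 and 1678 to 3489 without 1 library. The interaction called 76 and 21 without a filter, 60 higher with DESeq2, lower 1 with limma-voom, 4 with the replicate block and 4 without replicate 1 of all groups, and 24 to 35 and 0 to 3 without 1 library.

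In log2 fold change on beads between genotypes, Ghrh was −0.036 with limma-voom and −0.024 with the replicate block, and Oxt was 0.0045 with DESeq2 size factors, 0.11 with limma-voom, 0.073 with the replicate block and 1.36e-05 with all 12 libraries. Without replicate 1 of all groups Crh was −0.10, Ghrh −0.42, Oxt 0.22, Sst −0.84 and Trh −0.52, and in supernatant Avp 0.85, Ghrh −0.056, Sst −0.35 and Trh −0.018. Avp in supernatant was 0.91 without a filter (adjusted p = 2.55e-10) and 0.92 with DESeq2. In bead against supernatant RNA of Ctrl, Sst was 0.79 with all 12 libraries; Avp was −0.67 without a filter, −0.92 with the replicate block and −1.43 without replicate 1 of all groups; Oxt was −1.46 with library totals, −1.29 without a filter, −1.66 with limma-voom, −1.57 with the replicate block, −1.32 with all 12 libraries and −2.10 without replicate 1 of all groups. In Stat3KO, DESeq2 gave −1.27 for Avp and −1.43 for Oxt, and Trh was −0.46 without replicate 1 of all groups. In the interaction Ghrh was 0.011 with library totals and Oxt 0.15 without replicate 1 of all groups.

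Leaving out 1 library moved the bead genotype values to −0.27 to 1.14 for Avp, −0.079 to 0.52 for Crh, −0.26 to 0.27 for Ghrh, −0.69 to 0.94 for Oxt, −1.06 to −0.31 for Sst and −0.55 to 0.063 for Trh. In supernatant it gave 0.77 to 1.08 for Avp, −0.064 to 0.20 for Ghrh, −0.086 to 0.29 for Oxt and −0.39 to 0.12 for Sst. Bead against supernatant gave −1.51 to −0.34 for Avp and −2.26 to −0.97 for Oxt in Ctrl, and −1.89 to −0.96 for Avp, −2.14 to −1.10 for Oxt, −0.22 to 0.57 for Sst and −0.56 to 0.051 for Trh in Stat3KO. The interaction gave −1.19 to 0.22 for Avp, −0.30 to 0.22 for Ghrh, −0.82 to 0.81 for Oxt, −1.01 to −0.21 for Sst, −0.72 to −0.11 for Trh and 0.077 to 0.71 for Crh. With 3 pools per group, the spread of Avp and Oxt on beads limits what a genotype difference there could show. Ghrh in supernatant rests on fewer than 100 reads per library.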
